A study of Mus musculus with 4 samples.

Results

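The 35 genes described here make up the machinery that copies DNA and marks cells in S phase, out of 24135 genes listed in the files. They were taken by name: 14 encode proteins that license origins or form the replicative helicase, 11 encode polymerases, the sliding clamp and its loader, or enzymes that process the strands, 5 supply nucleotides, 3 act at entry into S phase and 2 act on chromatin at the fork. RNA was sequenced from 4 cultures of bone marrow-derived macrophages of C57BL/6 mice, with 1 library for each group. Marrow cells were cultured for 6 days with GM-CSF at 10 ng/ml and the adherent cells were used. The groups were wild-type (WT, Batf2+/+) and Batf2-/- (KO) cells, each at 0 h and at 3 h of lipopolysaccharide (LPS, 100 ng/ml), a bacterial product that activates macrophages, and per the labels all 4 had 4 h of interferon-gamma at 10 ng/ml first. Batf2 encodes a basic leucine zipper transcription factor, and the labels do not say which part of the gene was deleted, nor the age or number of mice behind a culture.

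Before a cell divides, the origin recognition complex, Cdc6 and Cdt1 load the ring of Mcm2 to Mcm7 onto DNA, and Cdc45 and the GINS complex turn that ring into a working helicase. Polymerases then extend the strands, held by the clamp Pcna, and Fen1 and Lig1 finish the lagging strand. Most of these genes are switched on together near the start of S phase by E2F transcription factors. Precursors in marrow cultures proliferate in GM-CSF, and activation with interferon-gamma or LPS is known to slow the proliferation of macrophages.

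Levels are in FPKM, that is, reads per length of transcript and per size of the library. Depth was estimated at 20.3 to 30.7 M reads a library, lowest for WT at 3 h and highest for KO at 3 h. With 1 library per group the spread between cultures was not measured and no test was made. Intervals are the deposited 95% intervals, so they hold the counting and assignment error of a single library and no variation among cultures. The verbs fell and rose are kept for genes past a size rule, which asked for a difference in log2(FPKM + 1) of 1 or more, a level of 1 FPKM or more on either side, and separate deposited intervals. Differences are on this log2 scale, as 3 h minus 0 h or KO minus WT. Overlap was judged on the limits as deposited, while printed intervals were shifted to centre on the FPKM. Batf2 had an FPKM of 2.63 (WT 0 h), 234.3 (WT 3 h), 0.259 (KO 0 h) and 10.1 (KO 3 h), so the KO library was below the WT library at each time, while KO at 3 h was above WT at 0 h. The macrophage markers Lyz2, Cd68 and Csf1r were high in every library, while the 5 erythroid markers summed to under 1 FPKM in each (highest 0.884). The 10 targets of interferon-gamma that were checked, such as Gbp2 and Irf1, summed to 120.4 FPKM (WT 0 h), 6404 (WT 3 h), 82.2 (KO 0 h) and 5650 (KO 3 h). Cxcl9, another target, had 0.624 (WT) and 0.124 FPKM (KO) at 0 h and 1249 and 1058 at 3 h. Iigp1 had 0.117 and 0.0941 at 0 h, so neither gene showed at 0 h the interferon-gamma treatment that the labels give. Others were expressed at 0 h, such as Gbp2 (49.8 FPKM in WT and 31.6 in KO) and Gbp3 (21.3 and 14.9). Ciita had 18.8 (WT) and 9.52 FPKM (KO) at 0 h. It rose by 1.31 in KO, and its difference in WT (0.46) did not pass the rule. Of the 10 targets, 9 rose in WT and 10 in KO. Whether the 0 h cultures had the treatment is thus not settled. Effects of LPS and of interferon-gamma on the difference between 3 h and 0 h therefore cannot be told apart, and LPS response stands here only for that difference.

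Because E2F factors bind the promoters of such genes, the 250 bases upstream of the start sites were searched for the E2F words TTTCCCGC, TTTCGCGC, TTTGCCGC and TTTGGCGC on both strands. The RefSeq table (GRCm38.p6) held 35 windows for 30 of the 35 genes, and 8 genes had a match (Mcm5, Mcm6, Mcm7, Cdc6, Orc1, Rfc3, Pola1 and Uhrf1). Matches lay in 22.9% of the member windows, in 3.48% of the windows of genes tested for the LPS response in WT and in 1.86% of all 32851 windows in the table. The windows of the 6 genes with a match and the highest level in WT cells at 0 h are printed 5′ to 3′ on the strand of the gene, ending at the base before the start site, with the matching letters in capitals.
Mcm6, chr1:128359706-128359955, reverse strand: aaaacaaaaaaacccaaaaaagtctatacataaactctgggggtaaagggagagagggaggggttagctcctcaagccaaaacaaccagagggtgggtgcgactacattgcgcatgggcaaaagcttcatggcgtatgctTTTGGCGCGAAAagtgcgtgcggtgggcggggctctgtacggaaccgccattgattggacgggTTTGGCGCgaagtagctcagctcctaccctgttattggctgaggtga
Mcm5, chr8:75109259-75109508, forward strand: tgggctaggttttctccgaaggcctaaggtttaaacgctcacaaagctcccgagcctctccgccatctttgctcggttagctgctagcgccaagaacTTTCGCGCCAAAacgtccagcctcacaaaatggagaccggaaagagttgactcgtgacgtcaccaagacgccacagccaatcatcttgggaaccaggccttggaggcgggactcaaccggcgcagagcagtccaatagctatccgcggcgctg
Uhrf1, chr17:56304063-56304312, forward strand: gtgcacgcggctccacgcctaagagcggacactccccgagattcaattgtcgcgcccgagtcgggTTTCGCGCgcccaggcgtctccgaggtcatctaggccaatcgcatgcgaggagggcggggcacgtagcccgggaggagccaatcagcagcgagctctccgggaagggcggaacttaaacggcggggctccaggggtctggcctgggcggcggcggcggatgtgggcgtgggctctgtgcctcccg
Mcm7, chr5:138171884-138172133, reverse strand: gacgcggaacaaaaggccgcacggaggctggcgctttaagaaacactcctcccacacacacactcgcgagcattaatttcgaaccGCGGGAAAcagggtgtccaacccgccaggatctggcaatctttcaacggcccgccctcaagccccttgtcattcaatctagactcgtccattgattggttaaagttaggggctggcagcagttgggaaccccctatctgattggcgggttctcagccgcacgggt
Rfc3, chr5:151651209-151651458, reverse strand: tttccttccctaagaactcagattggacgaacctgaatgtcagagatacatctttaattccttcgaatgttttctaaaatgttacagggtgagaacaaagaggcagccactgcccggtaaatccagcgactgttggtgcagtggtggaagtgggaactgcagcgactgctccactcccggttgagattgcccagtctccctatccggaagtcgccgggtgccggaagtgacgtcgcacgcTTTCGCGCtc
Pola1, chrX:93632156-93632405, reverse strand: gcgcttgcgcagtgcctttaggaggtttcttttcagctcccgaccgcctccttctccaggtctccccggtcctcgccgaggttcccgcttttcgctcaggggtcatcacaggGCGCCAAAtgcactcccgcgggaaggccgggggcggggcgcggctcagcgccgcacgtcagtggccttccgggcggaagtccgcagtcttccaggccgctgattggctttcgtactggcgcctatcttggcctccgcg

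In Mcm6 the first match runs from base -110 and overlaps a match on the other strand, and a second word lies from base -47. Mcm5 has the same kind of overlapping pair, from base -153. Rfc3 has its word within 10 bases of the start site. The CCAAT box, the 5-letter word CCAAT on either strand, was in 57.1% of member windows, in 35.3% of those of tested genes and in 33.8% of all windows. The CHR word TTTGAA, known from genes of G2 and mitosis, was in 8.57% of member windows, in 11% of those of tested genes and in 16% of all. A match is only a string of letters and was not tested as a binding site.

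The replication genes were expressed in the cells before LPS, and most of them fell by 3 h. In WT cells at 0 h, 34 of the 35 were above 0, from 1.70 FPKM for Orc1 to 166.7 for Pcna, with a median of 13.9. At 3 h the median over the genes above 0 was 3.81 FPKM in WT and 3.54 in KO, against 12.0 in KO at 0 h. The summed level of the group was 705.6 FPKM (WT 0 h), 265.2 (WT 3 h), 609.3 (KO 0 h) and 243.3 (KO 3 h), so both 3 h libraries lay below both 0 h libraries. Of 34 genes tested, 28 fell and none rose in WT cells, where 23.2% of all 10845 genes tested fell, and 26 fell and none rose in KO cells, where 28% of 10963 did. Among all genes tested, 7.56% rose in WT and 7.85% in KO. The KO count is 25 without Ccne2, which is listed at 0 in KO at 3 h. The median difference was -1.50 in WT and -1.46 in KO on the log2(FPKM + 1) scale, against -0.54 and -0.64 over all genes tested. The ratio of FPKM at 0 h to that at 3 h had a median of 3.28 over 34 genes in WT and of 3.31 over 33 genes in KO. Because most genes lay lower at 3 h, the libraries were also rescaled by their median ratio. Then 17 of 34 fell and none rose in WT (9.9% and 11.9% of all genes), and 15 fell and 1 (Rfc3) rose in KO (10.2% and 13% of all genes), with medians of -1.0 and -0.90 against -0.07 and -0.08. On that scale Rfc3 was above 0 in both genotypes, and Pcna (0.06) and Tyms (0.19) were above 0 in KO. In bulk RNA, fewer cells in S phase and less replication RNA per cell cannot be told apart.

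**Figure D1:**
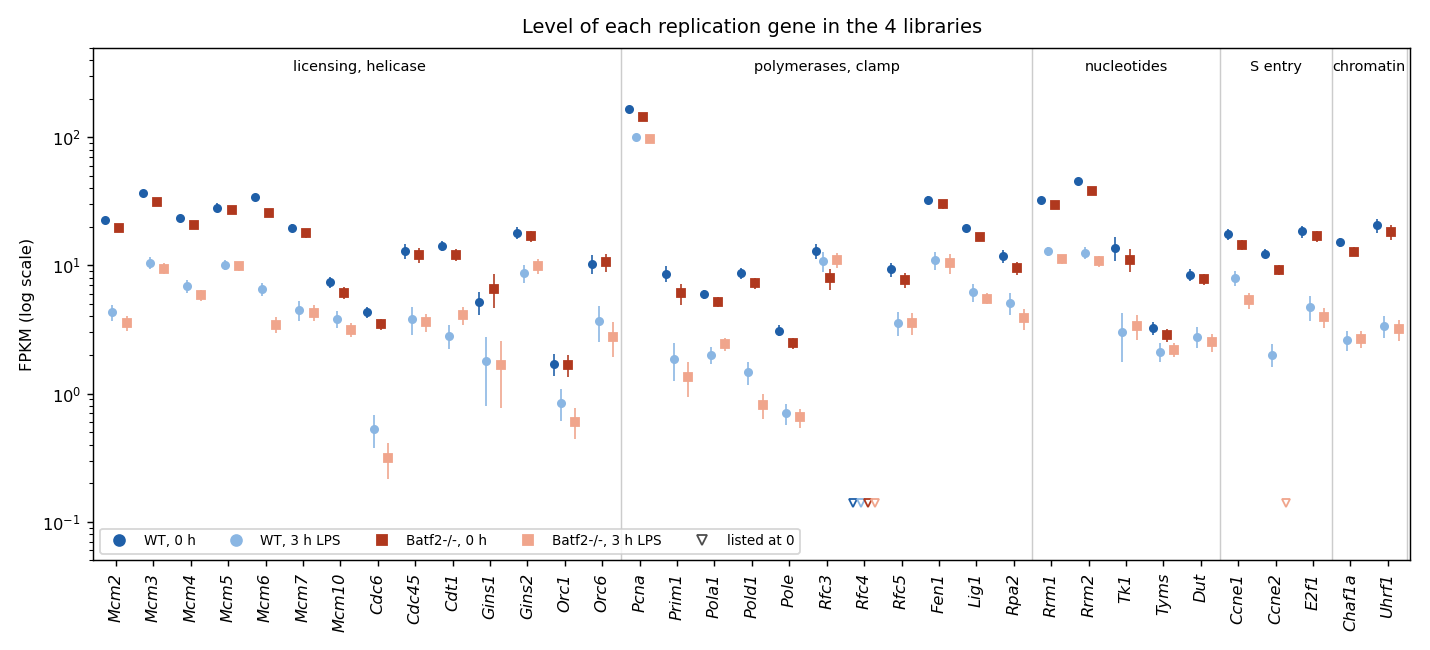
FPKM on a log axis for the 35 genes, grouped by role, in the WT libraries (circles) and KO libraries (squares) at 0 h (dark) and 3 h (light); bars show the 95% intervals, centred on the FPKM, and open triangles mark a listed value of 0. The light points lie below the dark ones for nearly every gene, with Rfc3 as the exception.

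Among the licensing genes, Cdc6, the loader of the helicase ring, had the highest ratio. Its FPKM was 4.31 in WT and 3.48 in KO at 0 h and 0.528 and 0.314 at 3 h, which is 8.16-fold lower in WT and 11.1-fold lower in KO. Cdt1, its partner in loading, had 14.2 (WT 0 h), 2.82 (WT 3 h), 12.1 (KO 0 h) and 4.08 FPKM (KO 3 h). It fell in both genotypes, by 2.00 in WT and by 1.36 in KO. Of the origin recognition complex, Orc1 had 1.70 and 1.66 FPKM at 0 h and 0.847 and 0.605 at 3 h and did not pass the rule, while Orc6 fell in WT from 10.3 to 3.67 FPKM and in KO from 10.6 to 2.79.

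The 6 subunits of the helicase ring (Mcm2 to Mcm7) all fell in both genotypes. They stood between 19.6 (Mcm7) and 36.8 FPKM (Mcm3) in WT at 0 h, a 1.87-fold range, and between 4.33 (Mcm2) and 10.5 (Mcm3) at 3 h, a 2.43-fold range. In KO the range was 17.9 to 31.4 FPKM at 0 h and 3.44 (Mcm6) to 9.81 (Mcm5) at 3 h. Their levels, close to each other before LPS, were thus further apart at 3 h, where Mcm6 and Mcm2 fell most and Mcm5 least. Mcm2 had 22.6 (WT 0 h), 4.33 (WT 3 h), 19.6 (KO 0 h) and 3.54 FPKM (KO 3 h), with differences of -2.15 (interval -2.34 to -1.96) in WT and -2.18 (-2.35 to -2.01) in KO. Mcm4 had 23.5, 6.91, 20.7 and 5.83 FPKM in the same order, with differences of -1.63 and -1.67. Mcm6 had 34.0, 6.52, 25.5 and 3.44 FPKM, with differences of -2.22 and -2.57. For Mcm6, at each time the KO library was below the WT library with separate intervals. Among the members this was also so for Ccne1 and Ccne2 only. The Ccne2 case at 3 h rests on a listed 0 in KO, which gives no level.

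The factors that activate the ring were less even. Cdc45 fell in WT from 12.9 to 3.79 FPKM and in KO from 12.0 to 3.60. Gins1 fell in WT from 5.16 to 1.79 FPKM and in KO from 6.59 to 1.68, with wide intervals at 3 h (0.805 to 2.77 and 0.768 to 2.59). Gins2, another subunit of the same complex, went in WT from 17.9 to 8.74 FPKM and in KO from 16.9 to 9.90, differences of -0.95 and -0.71 that did not pass. Mcm10, which helps start the helicase, also did not pass, with differences of -0.79 and -0.77. Of the 14 licensing and helicase genes, 11 fell in each genotype, with medians of -1.59 in WT and -1.56 in KO, and 8 fell in each after rescaling by the median ratio. Counts by role stand against the 23.2% (WT) and 28% (KO) of all genes tested that fell, or 9.9% and 10.2% after rescaling.

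Among polymerases and their partners, 8 of the 10 genes tested fell in WT and 6 in KO, with medians of -1.24 and -1.09. After rescaling by the median ratio 3 fell in WT, and 2 fell and 1 rose in KO. Of all genes, 23.2% fell in WT and 28% in KO, and 9.9% and 10.2% after rescaling, when 13% rose in KO. Pold1, the catalytic subunit of the lagging-strand polymerase delta, had 8.72 (WT 0 h), 1.48 (WT 3 h), 7.28 (KO 0 h) and 0.816 FPKM (KO 3 h), differences of -1.97 and -2.19. Prim1, the catalytic primase subunit, fell in WT from 8.62 to 1.86 FPKM and in KO from 6.06 to 1.35. Pole, the catalytic subunit of the leading-strand polymerase, fell in WT from 3.10 to 0.70 FPKM and in KO from 2.48 to 0.652. Pola1, which works with primase, fell in WT (5.96 to 2.00 FPKM) and had 5.18 and 2.43 FPKM in KO, a difference of -0.85 that did not pass. Fen1, the flap nuclease, Lig1, the DNA ligase that joins Okazaki fragments, and Rpa2, a subunit of the single-strand binding protein, fell in both, with differences from -1.07 (Rpa2 in WT) to -1.51 (Lig1 in WT).

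Pcna, the sliding clamp, was by far the most abundant member and changed less than most. It had 166.7 (WT 0 h), 99.5 (WT 3 h), 144.2 (KO 0 h) and 96.2 FPKM (KO 3 h). The 3 h libraries lay below the 0 h libraries and outside their intervals, yet the ratios were only 1.68 in WT and 1.5 in KO, and the rule was not passed. Pcna therefore made up 23.6% of the summed level in WT at 0 h and 37.5% at 3 h, and 23.7% and 39.5% in KO. Without it, the sum was 3.25-fold lower at 3 h in WT and 3.16-fold lower in KO. The annotation names 2 pseudogenes of Pcna, Pcna-ps1 and Pcna-ps2, whose sequences could share reads with it.

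The clamp loader did not move as a unit. Rfc5 fell from 9.32 to 3.57 FPKM in WT and had 7.72 and 3.54 in KO, a difference of -0.94. Rfc3 had 12.9 (interval 11.2 to 14.6, WT 0 h), 10.8 (8.89 to 12.8, WT 3 h), 7.91 (6.46 to 9.35, KO 0 h) and 10.9 FPKM (9.49 to 12.4, KO 3 h). The KO library at 0 h was the lowest, with an interval apart from that of WT at 0 h but overlapping that of WT at 3 h, and neither genotype passed the rule. Rfc4, another loader subunit, was listed at 0 in all 4 libraries with upper limits of at most 0.0921 FPKM, and so was Eno1, a glycolytic enzyme that cells in general express, so nothing can be said of the level of Rfc4.

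Genes of nucleotide supply fell with the exception of Tyms (4 of 5 in each genotype, and 2 in WT and 1 in KO after rescaling). Over all genes the shares that fell were 23.2% (WT) and 28% (KO), and 9.9% and 10.2% after rescaling. Rrm2, the S-phase subunit of ribonucleotide reductase, had 45.7 (WT 0 h), 12.6 (WT 3 h), 37.8 (KO 0 h) and 10.8 FPKM (KO 3 h), and differences of -1.79 and -1.72. Rrm1, the large subunit of the same enzyme, fell by 1.26 in WT and by 1.34 in KO. Tk1, the thymidine kinase of S phase, fell from 13.7 to 3.00 FPKM and from 11.1 to 3.36, and Dut, which removes dUTP, from 8.46 to 2.78 and from 7.85 to 2.52. Tyms, the thymidylate synthase, had 3.25 and 2.12 FPKM in WT and 2.86 and 2.20 in KO, and did not pass. The annotation names a pseudogene of it, Tyms-ps.

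Of the 3 genes of S-phase entry, all fell in WT, and E2f1 and Ccne1 fell in KO from and to levels above 0. After rescaling by the median ratio, when 9.9% (WT) and 10.2% (KO) of all genes fell, Ccne1 no longer passed (-0.56 and -0.72). E2f1 still fell in both genotypes (-1.28 and -1.29), and Ccne2 in WT (-1.71). E2f1, an activating E2F factor, had 18.4 (WT 0 h), 4.73 (WT 3 h), 16.9 (KO 0 h) and 3.95 FPKM (KO 3 h). Ccne1, which encodes cyclin E1, fell in WT from 17.6 to 7.98 FPKM and in KO from 14.5 to 5.33. Ccne2, which encodes cyclin E2, fell in WT from 12.3 to 2.02 FPKM. In KO it had 9.25 FPKM at 0 h and was listed at 0 at 3 h. It passes the rule there, but as with Rfc4 a listed 0 gives no level, so neither a ratio nor a fall can be read from it. At the fork, Chaf1a, the large subunit of the histone chaperone CAF-1, and Uhrf1, which keeps DNA methylation through replication, fell in both genotypes. Chaf1a had 15.2, 2.60, 12.8 and 2.68 FPKM (WT 0 h, WT 3 h, KO 0 h, KO 3 h) and Uhrf1 had 20.6, 3.37, 18.2 and 3.17, with Uhrf1 showing the lowest difference of any member in WT, -2.30.

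The WT and KO responses rest on separate libraries and were much alike. All 26 members past the rule as lower in KO also fell in WT, where Pola1 and Rfc5 fell besides. One of the 26, Ccne2, is listed at 0 in KO at 3 h. Across the 34 genes the responses had a Pearson r of 0.89 and a Spearman rho of 0.90, as over all 10661 genes tested in both (0.92 and 0.91). These values describe genes of the same 4 libraries, which are not independent. The response differed by less than 0.5 between genotypes for 31 of the 34 members (91.2%), and for 91.5% of all genes.

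**Figure D2:**
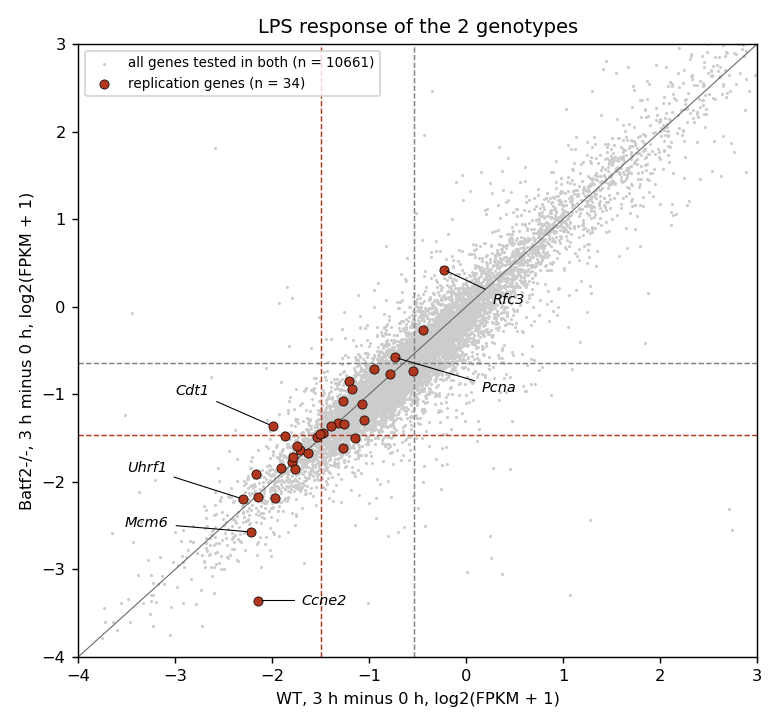
Difference between 3 h and 0 h on the log2(FPKM + 1) scale in WT (x axis) and KO (y axis) for all genes tested in both (grey, shown between -4 and 3) and for the 34 replication genes (red), with dashed lines at the medians of each set and a solid line of equal response. The red points lie along that line near -1.5, and Ccne2, listed at 0 in KO at 3 h, lies farthest below it.

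The difference between the responses asks whether loss of Batf2 changes the fall. It was called where its absolute value was at least 1 and its propagated interval excluded 0, as for 0.962% of all 11128 genes upward and 1.51% downward. Of 34 members, none was called upward and 1 downward: Ccne2, at -1.21 (interval -1.46 to -0.96). That call rests on the listed 0 and ended when genes at 0 were left out. Cdt1, at 0.63 (0.29 to 0.98), and Rfc3, at 0.66 (0.24 to 1.07), came nearest from above. The median over the members was 0.04, against -0.08 over all genes. Of the 34 members, 13 were below 0, where 63.4% of all genes were.

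Before LPS the replication genes stood slightly but widely lower in KO cells. At 0 h, 32 of 34 were below WT, where 50.1% of all 10846 genes tested were, and the median difference was -0.21 against 0.00. No member passed the size rule, while 0.387% of all genes passed it as lower and 1.33% as higher. Of the 34, 13 had intervals that lay apart, all of them lower in KO, where 9.26% of all genes lay apart as lower and 9.87% as higher. The largest differences were those of Rfc3 (12.9 FPKM in WT, 7.91 in KO, difference -0.64, interval -0.94 to -0.35), Prim1 (8.62 and 6.06, -0.44, deposited intervals overlapping) and Mcm6 (34.0 and 25.5, -0.40). Rrm2 (45.7 and 37.8 FPKM), Pcna (166.7 and 144.2), Mcm3 (36.8 and 31.4) and Chaf1a (15.2 and 12.8) were among those with separate intervals. Gins1 (5.16 and 6.59 FPKM) and Orc6 (10.3 and 10.6) were the members above WT, with overlapping intervals.

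Markers of other cells differed between the same libraries. All 11 neutrophil and precursor markers were higher in KO at 0 h, 5 of them past the rule, none was listed at 0, and their summed level was 3617 FPKM in WT and 8824 in KO at 0 h, against 5328 and 5131 at 3 h. The 6 stromal markers, none at 0, summed to 32.9 and 73.6 FPKM at 0 h, with 2 of the 5 tested past the rule, and to 33.6 and 52.9 at 3 h. The 5 early progenitor markers summed to 9.83 and 10.3 FPKM at 0 h, and the 9 macrophage markers to 22898 and 24691. Lyz2 alone had 21464 and 23092 FPKM of the macrophage sums. Of the 9 macrophage markers, 6 were above WT at 0 h and 3 below, none past the rule. Their differences ranged from that of Fcgr1 (39.8 and 32.4 FPKM, -0.29) to that of Adgre1 (39.1 and 55.4, 0.49). The 7 dendritic cell markers summed to 59.2 FPKM in WT and 39.2 in KO at 0 h, with none at 0, and to 46.4 and 52.3 at 3 h. Of the 5 tested at 0 h, 4 were below WT, with a median of -0.60, and Cd209a was past the rule as lower (6.46 and 2.13 FPKM). At 3 h Ccr7 made up much of the sum, with 18.2 FPKM in WT and 35.2 in KO. Of the 5 tested at 3 h, 3 were below WT and 2 above, with a median of -0.22. Clec9a was past the rule there as lower (9.68 and 2.16 FPKM), and Cd209a was listed at 0 in KO. The part of these cells in the difference of the replication genes was not tested.

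At 3 h the median difference between genotypes was nearer to 0, while the range over the members was wider (-1.59 to 0.41, against -0.64 to 0.30 at 0 h). The -1.59 is that of Ccne2, which rests on a listed 0 in KO, and the next lowest was Mcm6 at -0.76. The summed level of Mcm2 to Mcm7 was 1.18-fold lower in KO at 3 h and 1.16-fold lower at 0 h. Of 31 members with at least 1 FPKM, 24 were below WT, with a median of -0.10, while 65.6% of all 9808 genes were below WT, with a median of -0.07. One passed the rule as lower, Ccne2 (2.02 FPKM in WT, listed at 0 in KO), as 0.724% of all genes did, and none as higher, as 0.734% did. Mcm6 (6.52 and 3.44 FPKM, difference -0.76, interval -0.98 to -0.54), Pold1 (1.48 and 0.816, -0.45) and Ccne1 (7.98 and 5.33, -0.51) also had intervals that lay apart, all lower in KO, as 16.8% of all genes did. Cdt1 was higher in KO (4.08 against 2.82 FPKM) with a difference of 0.41, and its deposited intervals overlapped. After rescaling by the median ratio, 19 of 32 were below WT, and with the upper quartile the median turned to 0.0068.

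**Figure D3:**
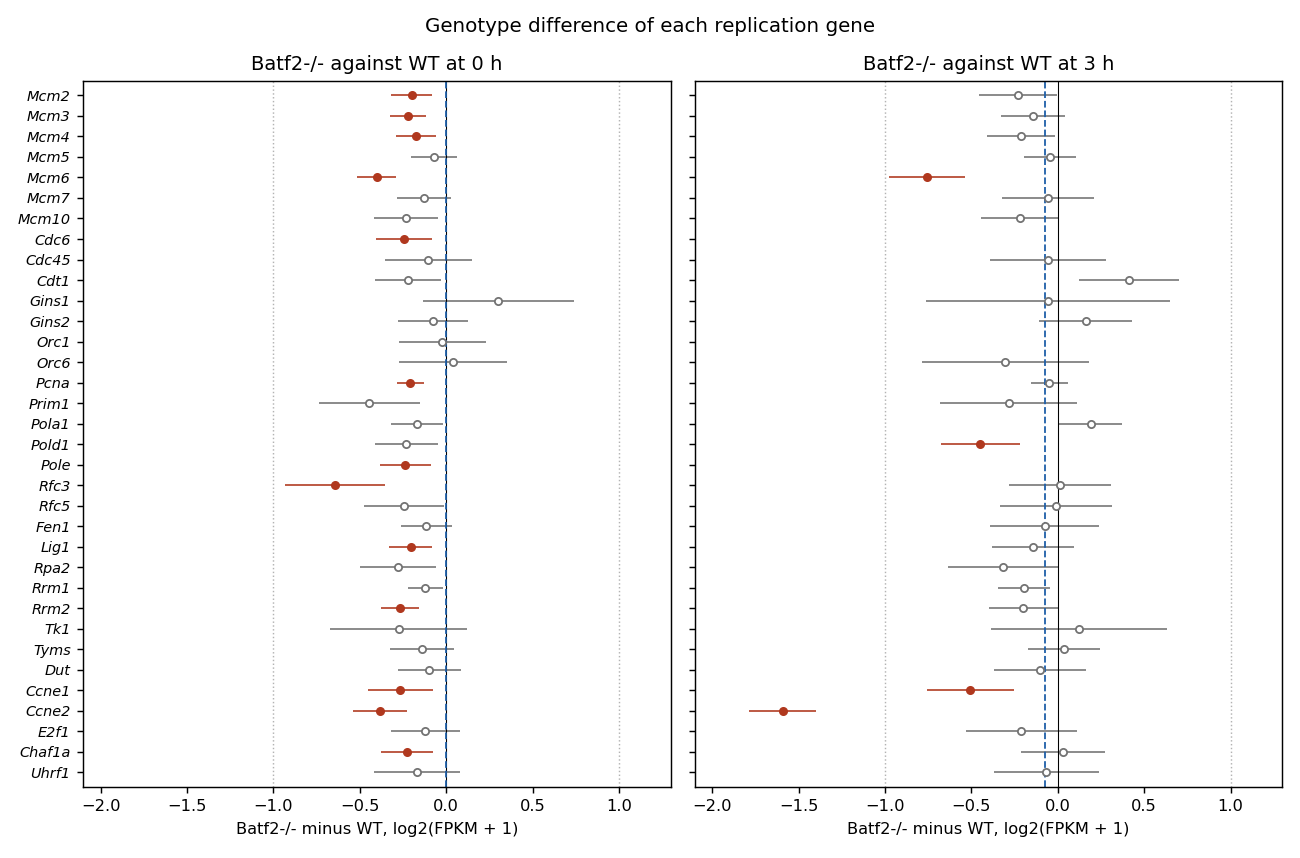
KO minus WT difference on the log2(FPKM + 1) scale for each replication gene tested at 0 h (left) and at 3 h (right); bars are intervals propagated from the deposited ones, filled red points have deposited intervals that do not overlap, dotted lines mark the size rule and the blue dashed line the median of all genes. The points at 0 h sit just left of 0, and those at 3 h spread to both sides.

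Other genes of the pathway were read from lists that do not include the members. Their counts stand against the 23.2% (WT) and 28% (KO) of all genes tested that fell, or 9.9% and 10.2% after rescaling by the median ratio. The shares of all genes that rose were 7.56% (WT) and 7.85% (KO), or 11.9% and 13% after rescaling. Of 39 further replication genes tested, 25 fell in each genotype and none rose, with medians of -1.28 in WT and -1.17 in KO, and 15 and 13 fell after rescaling. Among them Dnmt1, the maintenance DNA methyltransferase, fell by 2.24 and by 2.30. Clspn, which links forks to the checkpoint, fell by 2.25 and by 1.97, and Gmnn, the inhibitor of Cdt1, by 1.93 and by 2.62. Wdhd1, Chaf1b, Pole2 and Tipin fell by between 1.73 (Tipin in WT) and 2.11 (Wdhd1 in WT). Of 10 genes for replication checkpoints and repair, 7 were past the rule as lower in each genotype, and 5 and 4 after rescaling. The mismatch repair gene Msh6 (7.16 and 6.58 FPKM at 0 h) and Rad54l (5.09 and 4.87), of homologous recombination, were listed at 0 at 3 h in both, and Fanci (1.65 at 0 h) in KO. Chek1, a checkpoint kinase, fell by 1.43 and by 1.02.

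Regulators of S-phase entry split. Of 12 E2F and pocket protein genes, 6 fell in each genotype, and after rescaling 4 fell in WT, and 3 fell and 1 (E2f8) rose in KO. Among them were E2f2, an activating factor, at -2.02 and -1.94, E2f6, a repressor, at -1.69 and -1.74, and the partner Tfdp1 at -1.37 and -1.42. Tfdp2 fell by 1.44 and by 1.31. E2f8, a repressing E2F factor, had 16.3 (WT 0 h), 10.4 (WT 3 h), 15.0 (KO 0 h) and 22.4 FPKM (KO 3 h). The KO library at 3 h was the highest of these, by 1.04 over WT at 3 h (interval 0.89 to 1.19), and E2f8 was called in the difference between responses at 1.16 (0.97 to 1.36). Among the 10 genes of G1 cyclins, kinases and activators, 7 fell in WT and 8 in KO, and 3 and 5 after rescaling. Myc, a growth-promoting transcription factor, differed most, with 31.2 (WT 0 h), 3.29 (WT 3 h), 33.05 (KO 0 h) and 3.34 FPKM (KO 3 h), differences of -2.91 and -2.97. Others were Skp2, a ubiquitin ligase subunit (-1.80 and -1.72), Ccna2, cyclin A2 (-1.79 and -2.00), and Cdk2, the kinase that cyclins E and A bind (-1.40 and -1.81).

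Cyclin D2 and the inhibitor p21 rose. Ccnd2, cyclin D2, had 38.6 (WT 0 h), 119.5 (WT 3 h), 39.1 (KO 0 h) and 107.0 FPKM (KO 3 h) and was the only gene of its list to rise. Cdkn1a, which encodes p21, an inhibitor of cyclin-dependent kinases, had 197.1, 852.2, 204.1 and 754.1 FPKM in the same order, differences of 2.11 and 1.88. Cdkn2c, the inhibitor p18, fell by 2.02 and by 1.43, so the inhibitors did not move one way, and 5 of 7 were tested. After rescaling by the median ratio Ccnd2 and Cdkn1a still rose in both genotypes, Cdkn2b, the inhibitor p15, rose as well (1.05 and 1.02), Cdkn1b rose in KO (1.03), and Cdkn2c no longer passed in KO (-0.91). On that scale 2 inhibitors rose and 1 fell in WT, where 11.9% of all genes rose and 9.9% fell. In KO 3 rose and none fell, where 13% of all genes rose and 10.2% fell.

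Most genes of G2 and mitosis were lower at 3 h as well. Of 17, 13 were past the rule as lower in WT and 12 in KO, with medians of -1.18 and -1.45, and 7 in each after rescaling, with 1 (Mki67) higher in KO. Among them were Bub1b (-1.94 and -1.99), Plk1 (-1.66 and -1.98), Aurka (-1.69 and -1.68), Aurkb (-1.68 and -1.46) and Foxm1 (-1.51 and -1.72). Cdc20 had 15.5 and 12.0 FPKM at 0 h and was listed at 0 in both 3 h libraries, so neither a ratio nor a fall can be read from it. Mki67, a proliferation antigen, was the exception in sign, with 33.2 and 38.1 FPKM in WT and 31.1 and 52.2 in KO (0 h and 3 h), and did not pass, though it rose in KO after rescaling by the median ratio (1.36).

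Between genotypes, E2f8 was the only gene of these 6 lists past the rule, at 3 h and in the difference between responses. Numbers tested at 3 h were 32 (further replication genes), 10 (E2F and pocket proteins), 9 (G1), 5 (inhibitors), 16 (G2 and mitosis) and 3 (checkpoints and repair). For the difference between responses they were 39, 12, 10, 5, 17 and 10. Over all genes, 0.734% passed as higher and 0.724% as lower at 3 h. Between responses 0.962% were called upward and 1.51% downward. Below WT at 0 h were 29 of 39 further replication genes (median -0.10) and 14 of 17 of G2 and mitosis (-0.14). So were 9 of 10 of checkpoints and repair (-0.15) and 8 of 12 E2F and pocket protein genes (-0.10). Of the G1 genes 4 of 10 were (0.02), and of the inhibitors 3 of 5 (-0.11), against 50.1% of all genes. The further replication genes with the largest differences at 0 h were Asf1b, a histone chaperone (28.8 FPKM in WT and 21.0 in KO, -0.44), and Gins4, a GINS subunit (20.7 and 15.1, -0.43), and at 3 h Gmnn (5.37 and 3.12, -0.63) and Gins4 (9.57 and 6.77, -0.44). Between responses Gmnn (-0.69) and Rnaseh2a, a subunit of ribonuclease H2 (-0.47), differed most in that list. In the other lists the largest reported here were, at 0 h, E2f2 (-0.29), the pocket protein gene Rbl2 (-0.15), the kinase Cdk6 (0.23), Ccna2 (-0.21), Cdkn2c (-0.43), Cdkn1b (-0.11), Cdc20 (-0.34) and the kinetochore motor Cenpe (-0.34). At 3 h they were cyclin D1 (Ccnd1, 21.2 FPKM in WT and 13.9 in KO, -0.57), Cdk2 (-0.45), Cdkn1b (0.59), Cdkn1a (-0.18), Mki67 (0.44) and the mitotic kinase Cdk1 (-0.38). Between responses they were Ccnd1 (-0.60), Cdk2 (-0.40), Cdkn1b (0.71), Cdkn2c (0.60), Birc5, which encodes survivin (-0.58), Mki67 (0.54) and Msh6 (0.11, with both 3 h values listed at 0).

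**Figure D4:**
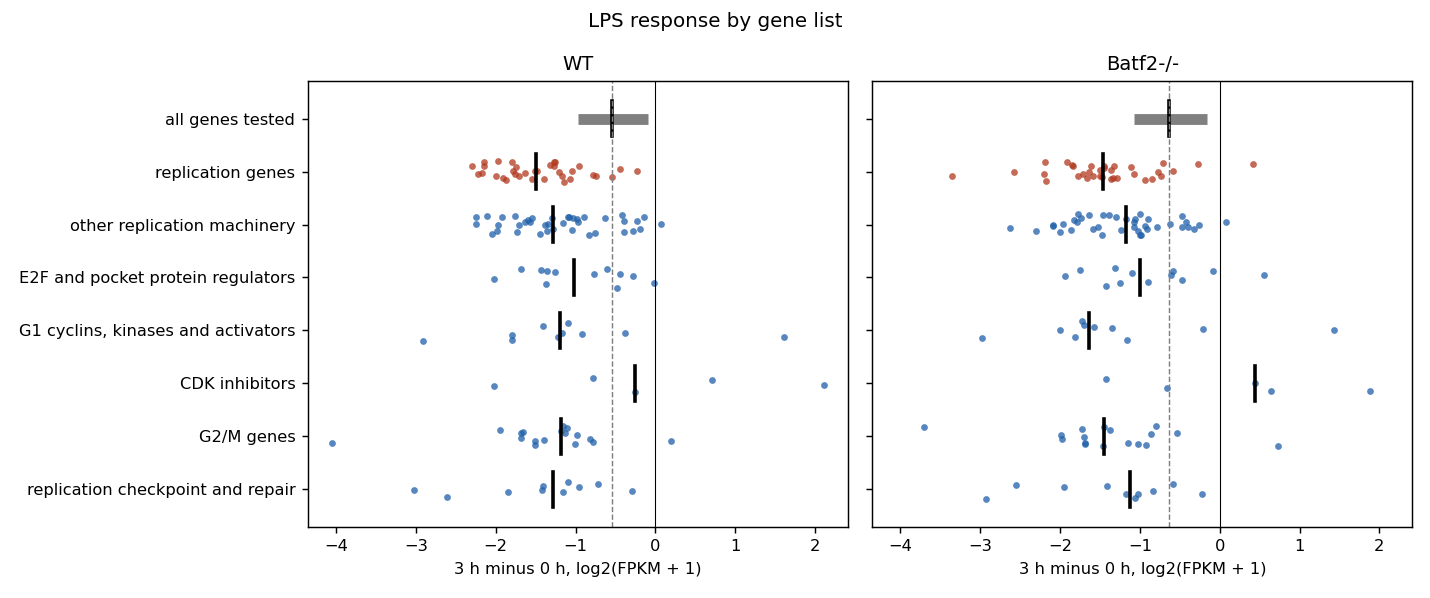
Difference between 3 h and 0 h on the log2(FPKM + 1) scale in WT (left) and KO (right) for the replication genes (red) and the genes of 6 further lists (blue), 1 point per gene with vertical jitter; black bars are medians, the grey bar spans the middle 50% of all genes tested and the dashed line is their median. Every list but the inhibitors has its median below that of all genes, and Cdkn1a and Ccnd2 are the points farthest to the right.

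Deposited values are split over transcript entries, and for 13 members more than 1 entry was summed. The split between entries differed from library to library. Fen1 had all of its 32.6 FPKM in WT at 0 h on 1 of 3 entries, and all of its 11 FPKM at 3 h on the others (6.04 and 4.98). Mcm5 had 14.7 and 13.6 FPKM on a pair of entries in WT at 0 h, and its whole level on the second of these in the other libraries. Ccne2 had its 12.3 FPKM in WT at 0 h on 1 of 3 entries, its 2.02 FPKM at 3 h on another, and 0 on all of them in KO at 3 h. Sums over entries were compared throughout.

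For 4 members a gene above 0 in these libraries starts within 500 bases and runs the other way. Orc1 lies 118 bases from Prpf38a, a splicing factor, which rose in WT from 14.4 to 42.9 FPKM and in KO from 14.3 to 47.0 while Orc1 had lower values at 3 h. Mcm7 lies 138 bases from Ap4m1, an adaptor protein subunit, and both fell, with differences for Ap4m1 of -1.10 and -1.52. Ufd1, 322 bases from Cdc45, and Tmem258, 281 bases from Fen1, had differences between -0.35 (Tmem258 in WT) and -0.51 (Ufd1 in KO) and did not pass. Exons of Ap4m1, Ufd1 and Tmem258 overlap those of Mcm7, Cdc45 and Fen1 on the other strand. Whether such pairs share reads was not tested. Members with and without an E2F word in their window had similar values: the medians were -1.60 over 8 genes and -1.51 over 21 in WT, and -1.57 and -1.45 in KO. The 35 genes lie on 14 chromosomes, with 5 on chromosome 2 and 5 on chromosome 5 as the highest numbers.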

How the data were processed

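Members and gene lists were chosen with earlier results of these data known. Per the labels, libraries were strand-specific single reads. TopHat2, Bowtie, SAMtools and Cufflinks, and the build mm9, are named per the submitters' processing notes, without versions or order. The deposited values are FPKM with interval limits and a status per RefSeq accession. All 54 member entries lay in their GRCm38 gene, so GRCm38 coordinates are given.

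Of 33841 entries, 33433 were named from RefSeq and 191 from GENCODE, and 217 kept their accession. FPKM and limits were summed per gene. Printed intervals keep the relative width of the deposited ones but are centred on the FPKM, since FPKM lay outside its interval for 1 to 4 member entries per library. All 54 were OK in each library. Depth was estimated from entries whose interval marks 1 read. Exons of 13 members overlap a gene on the other strand, and whether counting used strand is not given in the sources used here.

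All members are named, and of each further list and comparison up to 4 genes past the rule with the largest differences or, where none passed, the 2 largest with FPKM of at least 5. Some of these are not reported here. Alternatives were other pseudocounts, rescaling, FPKM minimums and single entries. Python 3.11.15 and pandas 2.3.3 were used.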

Additional observations from a re-analysis of the deposited data

Results flagged for a closer look

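Among the replication genes and the further pathway genes, those tested in both genotypes whose difference between 3 h and 0 h had opposite signs in WT and KO were noted, which with 1 library per group was not tested. Rfc3 was below its 0 h level in WT and above it in KO, and the responses differed by 0.66 on the log2(FPKM + 1) scale. E2f8 did the same, with a difference of 1.16 between responses. Cdkn1b, the inhibitor p27, had 9.95 and 8.15 FPKM in WT and 9.14 and 12.8 in KO (0 h and 3 h), a difference of 0.71. Rescaling the libraries by their median ratio puts the WT differences of Rfc3 and Cdkn1b above 0 as well, at 0.26 and 0.23.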

How the results depend on the processing

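No paired analysis was possible because the labels give no replicate numbers that the groups share. No library was left out, since each group holds 1. Without genes listed at 0, a setting chosen after seeing the data, 0 members were called lower at 3 h between genotypes and 0 in the difference between responses. A pseudocount of 0.1 gave medians of -1.69 (WT) and -1.70 (KO) for the LPS response. A pseudocount of 5 gave 18 and 16 of 34 members called lower, with medians of -1.04 and -0.96. It gave 0 called at 3 h between genotypes. In the difference between responses it gave 0 called and 8 members below 0, against 13 in the main setting. Rescaling by the median ratio gave 17 and 15 called lower and 1 higher in KO (medians -1.0 and -0.90). It put 8 of 34 members below 0 in the difference between responses, where 48.3% of all genes were. The upper quartile gave medians of -1.19 and -1.08, 15 members below WT at 3 h with a median of 0.0068, and 8 below 0 in the difference between responses. With FPKM of at least 5, 11 members were below WT at 3 h and 0 were called. The shares of all genes with a pseudocount of 5, the upper quartile or this minimum are not reported here. Taking the highest single entry gave a WT median of -1.35, 0 called lower and 1 higher (Fen1) at 3 h between genotypes, and 0 lower and 1 higher in the difference between responses, where Ccne2 turned to 0.38. The entry splits shown for Fen1 and Ccne2 set these values. The cause of the other changes was not tested. In each setting named, the median LPS response of the members stayed below 0. Depth limits low levels most, as the interval of Gins1 in WT at 3 h shows (1.79 FPKM, 0.805 to 2.77).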
